A study of Mus musculus with 2 samples.

Results

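The 39 Hox genes of the mouse were followed through cultured bone marrow cells. They were taken as every symbol in the gene lists of the count matrices that reads Hox, a cluster letter from a to d and a number, and all 39 were found among 32285 gene identifiers. The choice used names only, no measured value. The cells were bone marrow flushed from femurs and tibias of C57BL/6J mice and plated in alpha-MEM with 10% serum, with the cells that had not attached removed after 48 hours, so the analysed cells are adherent marrow cells of the hindlimb. The first library came from Slc31a1flox/flox littermates, called WT here although they carry the floxed alleles, and the second from Prrx1-Cre+/-; Slc31a1flox/flox mice, called cKO. Slc31a1 encodes a copper importer, and the Prrx1-Cre transgene recombines in early limb bud mesenchyme and its descendants, so blood and endothelial cells are not its intended target. Each group is 1 library, the number of mice behind each is not given, and no drug or osteogenic medium was used.

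Hox genes encode transcription factors that bind DNA through the homeodomain, and vertebrates hold them in 4 clusters in which the order of the genes follows the order of their expression along the body axis. Genes of the same paralogue number in different clusters are related copies. In the developing limb, the posterior genes mark segments from the hip to the digits: groups 9 and 10 are tied to the upper limb bone, group 11 to the lower limb bones, and groups 12 and 13 to the hand and foot. Connective tissue and marrow stroma of the adult keep much of this positional pattern, and blood stem and progenitor cells express mainly genes of the HoxA and HoxB clusters.

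On GRCm38 (GENCODE M21 annotation) the HoxA cluster lies on the minus strand at chr6:52155590-52260880 with 11 genes, HoxB on the plus strand at chr11:96194316-96368256 with 10, HoxC on the plus strand at chr15:102921103-103036852 with 9, and HoxD on the plus strand at chr2:74668310-74765142 with 9. The homeobox, the coding stretch for the homeodomain, was read from the GENCODE transcripts for the 3 genes of paralogue group 10, because that group held the highest Hox level of the stromal cells in 2 of its genes and almost none in the third. All 3 stretches are exonic and coding. They are printed 5′ to 3′ on the coding strand, with capitals at the bases that differ from Hoxc10.
Hoxc10: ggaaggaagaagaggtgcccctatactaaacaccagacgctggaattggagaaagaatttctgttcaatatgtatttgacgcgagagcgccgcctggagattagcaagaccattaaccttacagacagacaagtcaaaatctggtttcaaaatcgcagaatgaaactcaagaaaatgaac
Hoxa10: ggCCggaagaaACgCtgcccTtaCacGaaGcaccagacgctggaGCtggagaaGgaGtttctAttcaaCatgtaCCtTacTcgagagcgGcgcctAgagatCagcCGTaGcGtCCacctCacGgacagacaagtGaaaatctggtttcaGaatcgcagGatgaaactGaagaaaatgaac
Hoxd10: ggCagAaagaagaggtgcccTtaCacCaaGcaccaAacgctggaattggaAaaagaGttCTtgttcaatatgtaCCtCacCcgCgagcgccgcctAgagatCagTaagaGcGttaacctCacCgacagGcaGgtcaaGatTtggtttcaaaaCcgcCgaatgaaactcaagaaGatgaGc
Over these 180 bases, Hoxa10 matched Hoxc10 at 80.6% of bases and 93.3% of residues, and Hoxd10 at 82.8% of bases and 95% of residues. Hoxa10 and Hoxd10 encode homeodomains that differ from that of Hoxc10 at 4 and 3 of 60 residues. At the 3′ ends, where UMIs are counted, 5 of 741 pairs of Hox genes shared a run of 31 bases in the last 500 bases of their transcripts (Hoxa6 with Hoxb7, Hoxa7 with Hoxd4, Hoxa9 with Hoxc5, Hoxb8 with Hoxd8, Hoxa6 with Hoxa7).

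RefSeq promoters (GRCm38.p6, from 250 bases before to 50 after the start) were matched by symbol for 22 of the 39 genes. Those of 3 genes are shown for genes that differed most between cell classes or were almost silent in the stroma: Hoxb8, the HoxB gene with the widest gap between endothelial and stromal cells, Hoxb4, which was found in blood cells too, and Hoxd10. Capitals mark CG dinucleotides, the sites of DNA methylation.
Hoxb8, plus strand, chr11:96281655-96281954: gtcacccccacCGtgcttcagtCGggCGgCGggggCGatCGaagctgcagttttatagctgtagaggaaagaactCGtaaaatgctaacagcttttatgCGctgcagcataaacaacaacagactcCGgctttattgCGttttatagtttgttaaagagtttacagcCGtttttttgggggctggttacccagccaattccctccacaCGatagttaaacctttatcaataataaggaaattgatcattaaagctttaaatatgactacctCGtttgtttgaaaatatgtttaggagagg
Hoxb4, plus strand, chr11:96318017-96318316: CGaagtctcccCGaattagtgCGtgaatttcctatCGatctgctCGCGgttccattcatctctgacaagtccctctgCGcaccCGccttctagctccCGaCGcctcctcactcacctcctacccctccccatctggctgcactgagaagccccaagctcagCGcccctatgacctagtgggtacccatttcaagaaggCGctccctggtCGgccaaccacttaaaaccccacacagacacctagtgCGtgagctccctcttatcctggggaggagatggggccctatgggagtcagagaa
Hoxd10, plus strand, chr2:74691641-74691940: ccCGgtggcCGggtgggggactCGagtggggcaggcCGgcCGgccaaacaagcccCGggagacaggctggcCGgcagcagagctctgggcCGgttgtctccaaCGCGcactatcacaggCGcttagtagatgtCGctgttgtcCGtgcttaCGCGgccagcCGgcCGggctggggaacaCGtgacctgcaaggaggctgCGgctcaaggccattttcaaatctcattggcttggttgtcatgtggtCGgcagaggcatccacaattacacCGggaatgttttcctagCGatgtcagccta
The 3 windows hold 13, 14 and 22 CG dinucleotides. The median over the 24 Hox promoters in the table is 14.5, and over all 32851 promoters of the same length it is 7; 23.1% of all promoters hold as many as Hoxd10 or more. The letters TATAAA on either strand, a common core promoter element, are in the Hoxb8 window and in 13.6% of all promoters, and in neither of the other two. These matches describe the sequence only, and no methylation or binding was measured.

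The matrices held 9125 barcodes in WT and 6140 in cKO, with 152398639 and 126031142 unique molecular identifiers (UMIs, each standing for 1 captured RNA molecule). After filters, 7637 and 5263 cells were kept, with median depths of 9706 and 9710 UMIs. The libraries shared 11 barcodes. Clusters were formed without the Hox genes and named from marker genes, with the suffix "-like"; because UMIs are counted at 3′ ends, levels of different genes are compared without scaling by length. Levels are in CPM, the UMIs of a gene scaled to a fixed total of the class, and each 95% interval covers counting error only. With 1 library per group, no difference between WT and cKO has a replicate check and no p-value is given.

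Mesenchymal-like cells numbered 3714 in WT and 1397 in cKO. Prrx1, a limb mesenchyme factor, was at 456 CPM and 449 CPM there, against 12.8 and 6.95 in endothelial-like and 21.3 and 19.9 in macrophage-like cells. Of 12 mesenchymal markers, 5 were at their highest in this class and none was at 0. The 2 libraries filled the class differently: median depth was 13823 UMIs in WT and 62256 in cKO, and a shallow state led by neutrophil transcripts (Ltf, Camp) made up 34.3% of the WT and 3.29% of the cKO mesenchymal-like cells. Slc31a1, the targeted gene, was at 42.3 CPM in WT and 14.3 CPM in cKO mesenchymal-like cells, and at 70.1 and 72.3 CPM in macrophage-like cells.

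Mesenchymal-like cells used the HoxA and HoxC clusters. The 39 genes together gave 31293 UMIs in WT, 303 CPM (299 to 306), and 23407 UMIs in cKO, 283 CPM (279 to 287). HoxC genes held 50.1% of these UMIs in WT and 51.8% in cKO, and HoxA genes 42.9% and 41.4%. HoxB genes held 5.73% and 5.12%, and HoxD genes 1.27% and 1.69%. At least 1 CPM was reached by 23 Hox genes in WT and 20 in cKO, where 41.1% and 40.9% of all gene identifiers reached it.

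Hoxc10, a posterior gene of the hindlimb and lumbosacral region, had the highest level of the family, with 51.2 CPM in WT (49.9 to 52.6) and 50.4 CPM in cKO (48.9 to 51.9). Hoxa10, its relative in the HoxA cluster that patterns the femur, followed with 35.4 and 32.1 CPM, and Hoxa9, a gene of limb, kidney and blood progenitors, with 31.1 and 28.4. These neighbours in the order did not overlap in their counting intervals within either library. Hoxc9 was at 24.4 CPM in each library, and its intervals lay above those of Hoxc6, at 21.2 and 20.6 CPM. Hoxa7 came next with 20.2 and 18.1 CPM, and in WT its interval (19.3 to 21.1) overlapped that of Hoxc6 (20.4 to 22.2). Hoxc8 (18.6 and 16.4 CPM) lay above Hoxa3 (15.9 and 13.4), which acts in the pharyngeal arches and neck. The levels of Hoxc5 (14.6 and 13.2 CPM) and Hoxc4 (13 and 10.3) overlapped in no library, while those of Hoxa3 and Hoxc5 overlapped in both. Hoxc4, Hoxc5 and Hoxc6 share upstream exons and promoters in several species. Hoxa5, a gene of lung and axial skeleton, was at 11.5 and 10.2 CPM.

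Levels were low at the distal end of the clusters. Hoxa11, needed for the bones of the lower limb segment, was at 7.83 CPM in WT and 7.52 CPM in cKO, and Hoxc11 at 6.78 and 7.0. Hoxa13, a gene of hand and foot, was at 1.30 and 0.919 CPM, and Hoxc12 gave 7 and 10 UMIs. Hoxc13, known for hair and nail, was at 1.75 CPM in WT and 4.32 CPM in cKO. By paralogue group, group 10 held 28.6% and 29.2% of Hox UMIs, group 9 held 19.3% and 19.2%, group 11 held 4.83% and 5.17%, group 12 held 0.0224% and 0.0427%, and group 13 held 1.01% and 1.89%. Group 11, of the lower limb segment, was at 14.6 CPM in each library, against 86.7 and 82.5 CPM for group 10.

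The posterior HoxD genes, which pattern the limb in the embryo, were nearly absent. Hoxd10 gave 0 UMIs in WT and 1 in cKO, Hoxd11 gave 0 and 10, Hoxd12 gave none in either, and Hoxd13 gave 1 and 10. In cKO the Hoxd11 UMIs lay in 3 cells and those of Hoxd13 in 4, of which 2 held both genes. A count of 0 in WT mesenchymal-like cells allows up to 0.0290 CPM. Hoxd8 was the highest HoxD gene, at 3.01 and 3.53 CPM, and Hoxd9 followed at 0.581 and 0.665, with Hoxd3 and Hoxd4 below 0.25 CPM. Hoxb1, Hoxb13 and Hoxd1 gave no UMI in mesenchymal-like cells of either library, which with Hoxd12 makes 4 silent genes.

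Among HoxB genes the anterior end was the most abundant, with Hoxb2, a hindbrain gene in the embryo, at 5.56 and 5.77 CPM, Hoxb3 at 3.78 and 3.13, and Hoxb4 at 2.53 and 2.72. Hoxb5 to Hoxb9 lay between 0.302 and 2.27 CPM. Within HoxA, levels did not follow position smoothly: Hoxa2 (0.793 and 0.460 CPM), Hoxa4 (2.28 and 1.97) and Hoxa6 (0.687 and 0.629) were low beside the neighbours Hoxa3, Hoxa5 and Hoxa7. The annotated body of Hoxa3 spans Hoxa4, Hoxa5 and Hoxa6 on the same strand without sharing exons with them. The exons of Hoxc5 and Hoxc10 overlap on the same strand over 5.37% and 8.70% of their bases, and those of Hoxd3 and Hoxd4 over 9.26% and 13.2%, so UMIs in the shared stretches cannot be assigned by position, and 10 Hox genes have an antisense exon across them.

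**Figure D1:**
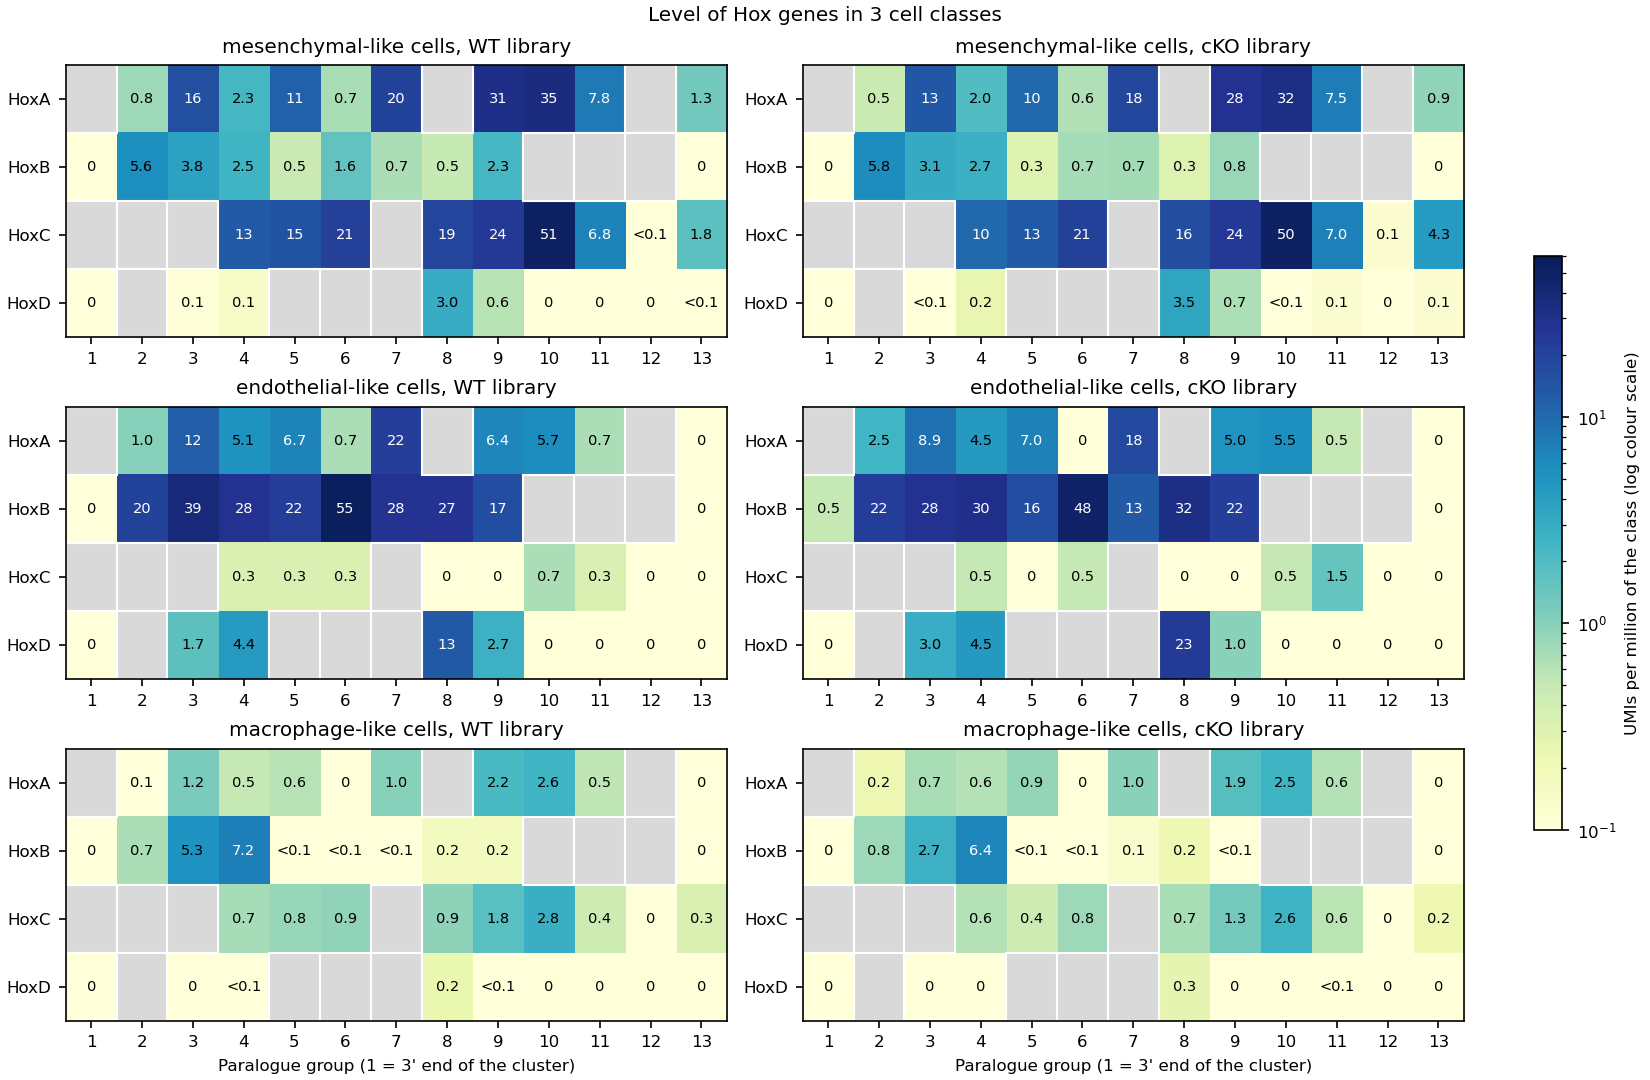
Level of Hox genes in CPM (number and log colour scale) by cluster (rows) and paralogue group (columns, 1 at the 3′ end of the cluster) in 3 cell classes and 2 libraries; grey squares are empty or not shown, and levels under 0.1 share the palest colour with 0. HoxA and HoxC carry the colour in mesenchymal-like cells, HoxB in endothelial-like cells, and Hoxb4 is the highest in macrophage-like cells.

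Endothelial-like cells, 103 in WT and 64 in cKO, carried as much Hox RNA as the stroma, but from another cluster. Their summed level was 320.3 CPM in WT (300.2 to 341) and 300.3 CPM in cKO (277 to 325). HoxB genes gave 73.2% of it in WT and 70.7% in cKO, HoxA genes 19.4% and 17.7%, HoxD genes 6.84% and 10.6%, and HoxC genes 0.632% and 0.992%. All 10 endothelial markers were at their highest in this class. Cdh5, the cadherin of endothelial junctions, was at 1414 and 1624 CPM there and at 5.09 and 1.56 CPM in mesenchymal-like cells.

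**Figure D2:**
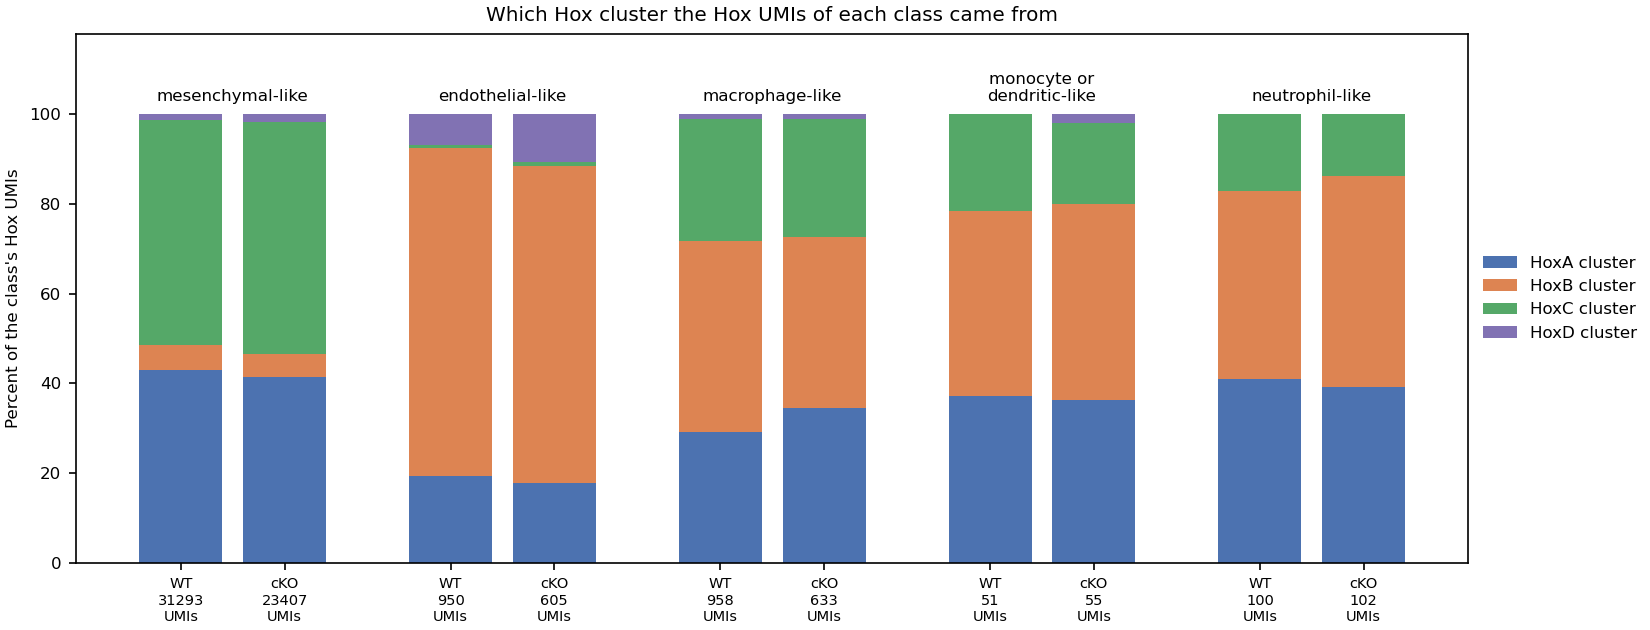
Share of the Hox UMIs of each cell class (percent, stacked to 100) that came from each of the 4 Hox clusters, by class and library, with the number of Hox UMIs under each bar. The HoxC share is the largest in mesenchymal-like cells and the smallest in endothelial-like cells, where HoxB genes fill 73.2% and 70.7%.

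Of 28 Hox genes with at least 1 CPM in 1 of the classes in each library, 12 were at least 1.5-fold higher in endothelial-like than in mesenchymal-like cells in both libraries, where 20.4% of all genes tested were. They were Hoxa4, Hoxd3, Hoxd4, Hoxd8 and every HoxB gene from Hoxb2 to Hoxb9. Another 11 were at least 1.5-fold lower in both libraries, against 21.9% of all genes tested: Hoxa9, Hoxa10, Hoxa11, and Hoxc4, Hoxc5, Hoxc6, Hoxc8, Hoxc9, Hoxc10, Hoxc11 and Hoxc13. The median log2 ratio of the 28 was -0.15 in WT and -0.29 in cKO, beside -0.06 and -0.01 over all genes tested. Genes such as Hoxb8 and Hoxc9 reached 1 CPM in 1 of the classes only and had to differ to be counted, so these counts are descriptions. The family total was similar in the 2 classes while single genes lay far apart in both directions.

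Hoxb6, a trunk gene, was the highest in endothelial-like cells, with 54.6 CPM in WT (46.5 to 63.7) and 47.7 CPM in cKO (38.6 to 58.2), against 1.60 and 0.714 CPM in mesenchymal-like cells. The ratio was 34.2 in WT (27.4 to 42.8) and 66.8 in cKO (47.8 to 94.0). Hoxb8 had the widest gap of the HoxB genes, with 27 and 32.3 CPM in endothelial-like against 0.484 and 0.302 CPM in mesenchymal-like cells, a ratio of 55.8 (38.7 to 81.0) and 106.7 (66.4 to 177). The anterior genes Hoxb3, at 38.8 and 28.3 CPM, and Hoxb4, at 28.0 and 30.3 CPM, were 10.2 and 9.03 times, and 11.1 and 11.1 times, as high as in the stroma. Hoxb5 and Hoxb7 were at 22.3 and 27.6 CPM in WT, and at 16.4 and 12.9 CPM in cKO. Hoxb9 was at 16.5 and 21.8 CPM and Hoxb2 at 19.6 and 22.3 CPM, the latter with the smallest HoxB gap, 3.51 and 3.87 times. The HoxB genes from Hoxb2 to Hoxb9 lay between 12.9 and 54.6 CPM in endothelial-like cells, a run that covers the cluster apart from its ends, Hoxb1 (0 and 1 UMI) and Hoxb13 (none).

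HoxC genes were at the edge of detection in endothelial-like cells. Hoxc10 gave 2 UMIs in WT and 1 in cKO, and its ratio to the mesenchymal level was 0.0132 (0.00159 to 0.0476) and 0.00985 (0.000249 to 0.0549). Hoxc9 gave none in either library, and against 3 UMIs per library its level was at least 24.1-fold lower than in WT mesenchymal-like cells and at least 16.4-fold lower in cKO. Hoxc8 was at least 18.4-fold and 11-fold lower in the same way. The HoxC genes summed to 1.33% and 2.03% of their mesenchymal level. A list of 20 stromal genes gave a scale for stromal RNA outside the stroma: these genes, collagens and Prrx1 among them, had a median of 4.75% and 2.75% of their mesenchymal level in endothelial-like cells.

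HoxA genes differed in endothelial-like cells without following position smoothly. Hoxa3 and Hoxa5, at 12.1 and 6.74 CPM in WT, lay below their WT stromal levels of 15.9 and 11.5 CPM. Hoxa4, between them, was at 5.06 CPM in WT and lay above its WT stromal level of 2.28 CPM. The directions were the same in cKO. Hoxa7 was at 21.6 and 17.9 CPM, and its ratio to the stroma was 1.07 (0.819 to 1.37) and 0.987 (0.689 to 1.37). Hoxa9, at 6.41 and 4.96 CPM, was 0.206 and 0.175 of the stromal level, and Hoxa10, at 5.73 and 5.46 CPM, was 0.162 and 0.170 of it, both above the 4.75% and 2.75% of the reference genes. All 14 Hox genes with at least 10 UMIs in endothelial-like cells of both libraries exceeded that reference more than 2 times, as did 99.1% of all genes with as many UMIs. Hoxa11 gave 2 UMIs and 1 UMI. Hoxd8, at 13.1 and 23.3 CPM, and Hoxd4, at 4.38 and 4.47 CPM, were the HoxD genes with the highest endothelial levels.

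Blood cells carried much less Hox RNA, with Hoxb4 leading in place of Hoxc10. Summed levels were 32.2 and 27.3 CPM in 2812 and 2531 macrophage-like cells, 30.05 and 28.7 CPM in 146 and 138 monocyte- or dendritic-like cells, and 39.3 and 29.9 CPM in 313 and 334 neutrophil-like cells. Of the 10 markers of each class, 6 were at their highest in macrophage-like, 3 in monocyte- or dendritic-like and 10 in neutrophil-like cells. In macrophage-like cells the 20 stromal reference genes stood at a median of 7.54% of their mesenchymal level in WT and 6.93% in cKO. HoxA genes summed to 7.24% and 8.04% and HoxC genes to 5.78% and 4.89%, near that median, and HoxB genes to 78.7% and 72.1%. Of 18 Hox genes with at least 10 UMIs in each library, 4 exceeded the reference median more than 2 times in both libraries (Hoxa4, Hoxb3 and Hoxb4 among them), where 91.7% of all genes with as many UMIs did. The other 14 stayed under 2 times the reference in both libraries, with Hoxc10 at 5.50% and 5.23%, Hoxa10 at 7.2% and 7.93%, and Hoxb2 the highest of them, at 12.1% and 13.5% of the stromal level. Free RNA was not measured in empty droplets, and no expression is read from these 14. Among cells with at least 20000 UMIs, 2 genes met the rule, Hoxb3 (31 and 11 UMIs) and Hoxb4 (53 and 28 UMIs); Hoxa4, with 3 UMIs in each library, was under the minimum of 10.

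Hoxb4, known from the control of blood stem cell growth, was higher in blood than in stromal cells. It was at 7.18 CPM in WT macrophage-like cells (6.25 to 8.21) and at 6.44 in cKO (5.44 to 7.56), against 2.53 and 2.72 in mesenchymal-like cells. In neutrophil-like cells it was at 11.4 CPM (7.63 to 16.4) and 9.98 CPM (6.91 to 13.9), and in monocyte- or dendritic-like cells at 5.89 and 7.31 CPM. Hoxb3 was at 5.27 CPM (4.48 to 6.16) in WT and 2.68 CPM (2.05 to 3.43) in cKO macrophage-like cells. These intervals did not overlap, in a class that is not the intended target of Prrx1-Cre, and the cause was not tested. Hoxb3 was at 3.93 and 3.52 CPM in neutrophil-like cells, and 4.12 and 4.70 in monocyte- or dendritic-like cells. Hoxa9, a gene of myeloid progenitors, was at 7.07 and 5.87 CPM in neutrophil-like cells, 22.8% and 20.7% of its stromal level, beside a reference median of 4.46% and 2.10%. In macrophage-like cells Hoxa9, at 2.22 and 1.86 CPM, stood at 7.13% and 6.55% of its stromal level, no higher than the reference genes. All 3 Hox genes with at least 10 UMIs in neutrophil-like cells (Hoxa9, Hoxb3, Hoxb4) and the only such gene in monocyte- or dendritic-like cells (Hoxb4) exceeded the reference, as did 97.2% and 98.5% of all genes there. Osteoclast-, B cell- and T or NK cell-like classes had no Hox gene with 10 UMIs in both libraries; 97.6%, 99.5% and 99.7% of all genes with as many UMIs exceeded the reference in them.

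Detection in single cells was compared after thinning each cell to 20000 UMIs, which left out 2041 of the WT and 278 of the cKO mesenchymal-like cells. A mesenchymal-like cell then showed a mean of 4.56 Hox genes in WT and 4.27 in cKO, with a highest count of 18 and 11. No Hox gene was seen in 0.956% (0.548 to 1.55) and 1.43% (0.819 to 2.31) of cells. At least 5 were seen in 796 WT cells, 47.6%, and in 470 cKO cells, 42.0%. Endothelial-like cells showed a mean of 4.59 and 4.27 genes in 76 and 48 cells. Macrophage-like cells, 297 and 191 of them at this depth, showed 0.458 and 0.340, and none was seen in 65.0% and 71.7%. Nearly all stromal cells of this depth showed Hox RNA, and most macrophage-like cells showed none.

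At that depth Hoxc10 was seen in 60.4% of WT and 60.5% of cKO mesenchymal-like cells, Hoxa10 in 46.5% and 44.4%, Hoxa9 in 43.9% and 39%, and Hoxc9 in 35.3% and 37.7%. Without thinning, Hoxc10 was seen in 84.9% and 90.6% of the same cells, and in 51.9% and 76.1% of mesenchymal-like cells of all depths. Hoxc10 was seen in 3.70% and 3.14% of macrophage-like cells, from which no expression is read, and in 1 of 76 and 0 of 48 endothelial-like cells. Hoxb6 ran the other way, with 55.3% and 52.1% of endothelial-like and 2.27% and 1.61% of mesenchymal-like cells. Hoxb4 was seen in 13.8% (10.1 to 18.3) and 12.0% (7.79 to 17.5) of macrophage-like cells, and in 4.60% and 5.36% of mesenchymal-like cells.

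**Figure D3:**
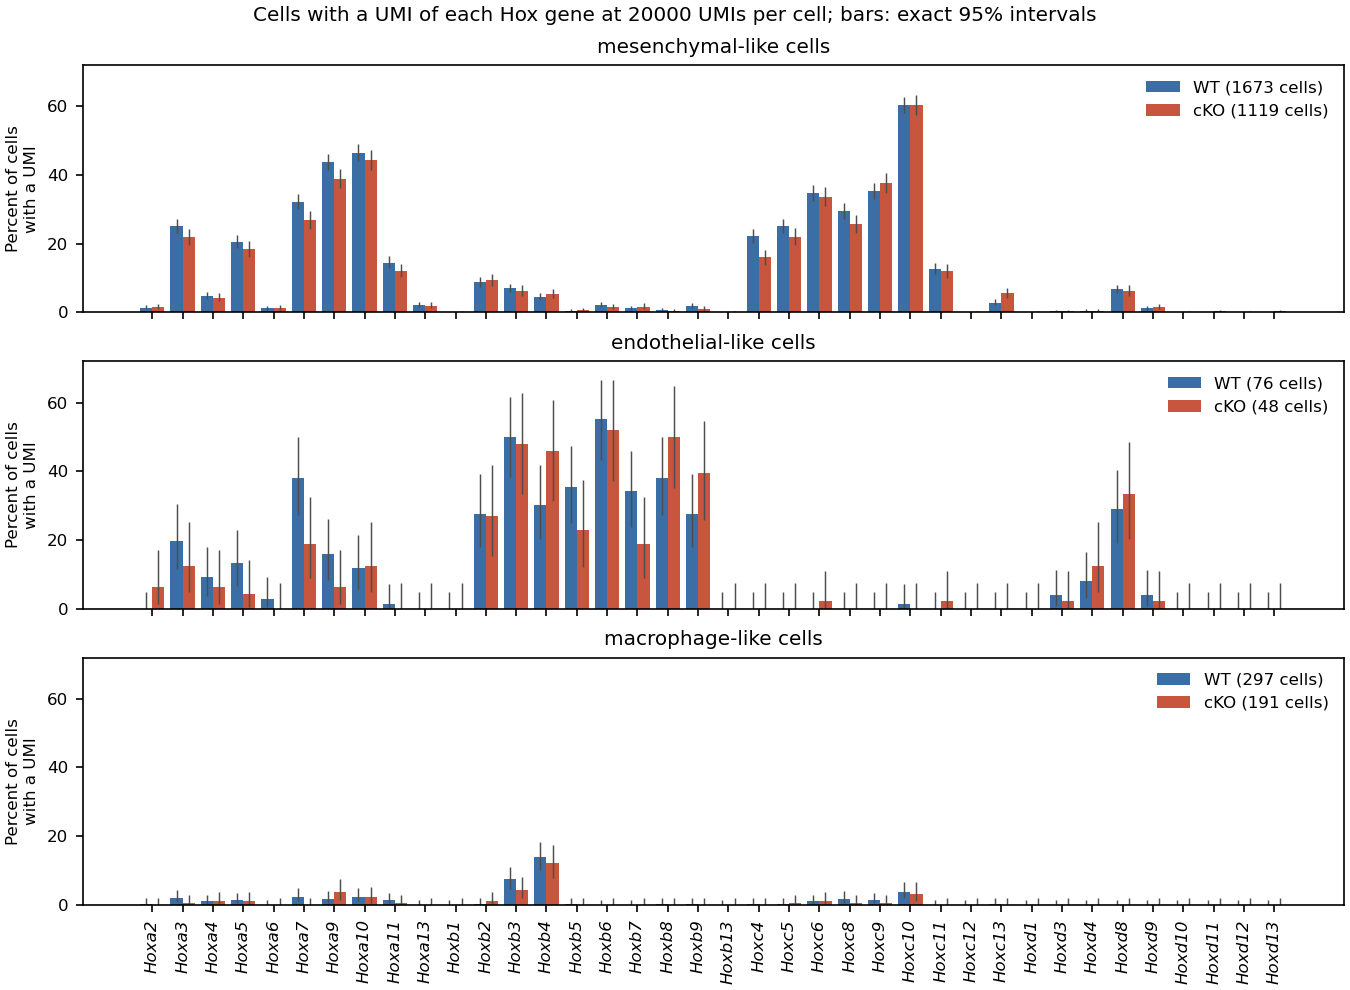
Percent of cells with at least 1 UMI of a Hox gene (x axis) after every cell was thinned to 20000 UMIs, in 3 cell classes, with the cells of each library as bars and exact 95% binomial intervals as lines. Tall bars stand in HoxA and HoxC for mesenchymal-like cells and in HoxB for endothelial-like cells, and the tallest bars of macrophage-like cells are those of Hoxb4.

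Which Hox genes were seen together in the same mesenchymal-like cell was set against the product of their shares. Over the 136 pairs of the 17 genes seen in at least 5% of cells, the median quotient was 1.06 in WT and 1.05 in cKO. The 43 pairs from the same cluster had a median of 1.12 in each library, and the 93 pairs from different clusters 1.03 and 1.01. Hoxb2 and Hoxb3, neighbours on chromosome 11, stood out with 28 cells against 10.3 from their shares in WT and 19 against 6.51 in cKO, quotients of 2.72 and 2.92. Hoxa3 with Hoxa5 followed at 1.41 and 1.55, Hoxa5 with Hoxa11 at 1.24 and 1.53, and Hoxa10 with Hoxa11 at 1.33 and 1.32. From different clusters, Hoxb3 with Hoxc4 gave 1.23 and 1.61, and Hoxa3 with Hoxb3 gave 1.09 and 1.63. The lowest pairs were Hoxb2 with Hoxd8 (0.610 and 0.461) and Hoxa11 with Hoxb3 (0.942 and 0.237). These quotients are descriptions of sparse counts, most of them near 1, and the genes of a pair share cells and depth.

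Hoxb5 to Hoxb9 were held by few cells in the stroma. Among mesenchymal-like cells with at least 20000 UMIs, Hoxb9 was seen in 47 of 1673 WT cells, with up to 25 UMIs in a cell, and in 29 of 1119 cKO cells, with up to 7. The 1% of cells with the most Hoxb9 held 79.6% of its UMIs in WT and 70.8% in cKO. A rare gene has a high share by its rarity, so genes of like level, chosen after their values were seen, stand beside it. In WT, against 221 UMIs of Hoxb9, Hoxa4 with 205 UMIs had 18.5% and Hoxb4 with 218 UMIs had 24.3%. In cKO, against 65 UMIs of Hoxb9, Hoxa13 with 75 UMIs had 30.7% and Hoxd9 with 54 UMIs had 42.6%. The variance over cells was 10.7 and 3.78 times the mean for Hoxb9. It was 1.12 times the mean for Hoxa4 and 1.71 for Hoxb4 in WT, and 1.41 for Hoxa13 and 1.43 for Hoxd9 in cKO. Genes from Hoxb5 to Hoxb9 were found in the same cells at 20000 UMIs per cell. Hoxb6 and Hoxb9 met in 14 WT cells against 0.704 from their shares, and in 4 cKO cells against 0.177. Hoxb8 and Hoxb9 met in 8 WT cells against 0.204, and in none of the cKO cells against 0.0393.

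Cells with at least 3 UMIs of Hoxb5 to Hoxb9 were 41 of the 1673 in WT, 2.45% (1.76 to 3.31), and 30 of the 1119 in cKO, 2.68% (1.82 to 3.81). They held 82.4% and 72.1% of the UMIs of these 5 genes. The rest of the cluster, which did not choose these cells, was high in them as well: Hoxb2 was at 29.2 and 21.4 CPM, against 4.57 and 5.06 in cells with none of the 5, Hoxb3 at 30.9 and 7.97 against 2.76 and 2.83, and Hoxb4 at 17.5 and 10.9 against 1.90 and 2.18. Hoxc10, at 59.7 and 65.5 CPM, was present as in the other cells (51.7 and 49.7), so these cells held HoxB beside HoxC. Prrx1 was at 455 and 416 CPM. Of the endothelial genes, Pecam1 was at 1.25 and 14.7 CPM against 2.32 and 1.22 in cells with none of the 5, Emcn at 4.17 and 5.87 against 3.17 and 1.77, and Cdh5 at 0.834 and 4.62 against 2.59 and 1.09, where endothelial-like cells had 1414 and 1624 CPM of Cdh5. All 3 were thus higher in the HoxB-rich cells of cKO, and their part in the HoxB levels was not tested. Their depth, a median of 54191 and 70546.5 UMIs, was close to that of the cells with none of the 5 (51743.5 and 69153).

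Stromal states were described within each library, since clusters drawn from the same cells allow no test. The pre-osteoblast-like state, led by the bone matrix genes Ibsp and Bglap2, held 307 WT and 314 cKO cells; the cycling-like state held 489 and 378, and the myofibroblast-like state 735 and 444. The latter was led by Cxcl14 and Fabp4, both on the marker list for an adipogenic state. The contractile genes that name it followed, Actg2 and Tagln among them. It passed with 3 myofibroblast markers, the minimum for a name. No state earned that name with no filter on cells, with stricter filters, with doublets kept or at the finer resolution. The pre-osteoblast-like state kept its name in all of these, but its size moved. It held 402 WT and 333 cKO cells with no filter, and 188 and 114 with stricter filters. With doublets kept it held 203 and 162, with Hox genes in the clustering 201 and 146, and at the finer resolution 159 and 93. The summed Hox level was 347 and 320.1 CPM in cycling-like cells, 289.7 and 269 in myofibroblast-like cells, and 271 and 254 in pre-osteoblast-like cells. All 3 states were deep in both libraries, with medians between 48346 and 73202.5 UMIs. The other states of the class were shallow or small and are given no name.

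Hoxa3, Hoxa5, Hoxb2 and Hoxc13 were lower in pre-osteoblast-like cells. Hoxa3 was at 9.72 CPM in WT and 9.12 in cKO, against 17.2 and 15.1 in the other mesenchymal-like cells, a ratio of 0.566 (0.479 to 0.665) and 0.606 (0.519 to 0.705). Hoxa5 was at 7.33 and 6.56 CPM against 12.3 and 11.7, a ratio of 0.597 and 0.562. Hoxb2, at 3.32 and 3.56 CPM against 6.01 and 6.62, stood at 0.552 and 0.538. Hoxc13, at the other end of its cluster, was at 0.989 and 2.04 CPM against 1.90 and 5.20, a ratio of 0.520 and 0.393. These were the 4 of 22 tested Hox genes that were at least 1.5-fold lower in both libraries, where 11.1% of all genes tested were. In WT, Hoxc13 reached 1 CPM only in the other mesenchymal-like cells, so there it had to be lower to be counted. Hoxa4 (0.675 and 0.735) lay just outside that rule.

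Hoxd9, a gene of the proximal limb, was the only Hox gene at least 1.5-fold higher in pre-osteoblast-like cells of both libraries, with 1.11 and 1.22 CPM against 0.476 and 0.453, a ratio of 2.32 (1.27 to 4.10) and 2.69 (1.53 to 4.74); 3.09% of all genes tested were higher by that rule. It rested on 19 and 28 UMIs and reached 1 CPM only in that state, so it had to differ to be counted. The median log2 ratio of the 22 genes was -0.22 and -0.25, beside -0.10 and -0.10 over all genes tested. The same 5 genes met the rule among cells with at least 20000 UMIs, where 10.3% of all genes tested were lower and 3.4% higher.

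In the cycling-like state 17 of 21 Hox genes were above the other mesenchymal-like cells in each library. Of all 13252 genes tested, 6390 were above in WT and 6949 in cKO. None of the 21 reached 1.5-fold in both libraries, where 7.07% of all genes tested were higher and 4.41% lower by that rule. Among cells with at least 20000 UMIs none did either, beside 7.72% higher and 3.89% lower of all genes. The median log2 ratio was 0.32 in WT and 0.20 in cKO, beside -0.02 and 0.02. Hoxa9 was at 38.3 and 34.4 CPM there against 28.1 and 25.3, a ratio of 1.36 in each library, Hoxa11 at 9.78 and 9.82 against 7.03 and 6.35, and Hoxc10 at 59.7 and 56.1 against 47.8 and 47.4. Hoxa4 (1.51 and 1.44) came nearest the rule, and Hoxb2 stood at 1.36 and 1.72. Hoxb9 went opposite ways in the libraries, 2.39 and 0.464.

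In the myofibroblast-like state Hoxa13 was the only Hox gene of 22 that was at least 1.5-fold higher in both libraries, with 1.75 and 1.42 CPM against 1.05 and 0.671, a ratio of 1.67 (1.17 to 2.38) and 2.11 (1.31 to 3.40); 0.689% of all genes tested were higher in the same way. None was lower by that rule, where 6.76% of all genes were, and 7.45% of all genes were apart in either direction. In cKO it reached 1 CPM only in that state. Among cells with at least 20000 UMIs Hoxa13 was again the only one, where 0.934% of all genes were higher and 7.19% apart in either direction. Hoxc13 stood at 1.21 and 1.38. The median log2 ratio was -0.07 and -0.06, beside -0.06 and -0.02 over all genes. In the plot of ratios by state, the genes of the 3 states lie apart from each other by no more than a few fold, where endothelial-like cells differed from the stroma by up to 106.7-fold.

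**Figure D4:**
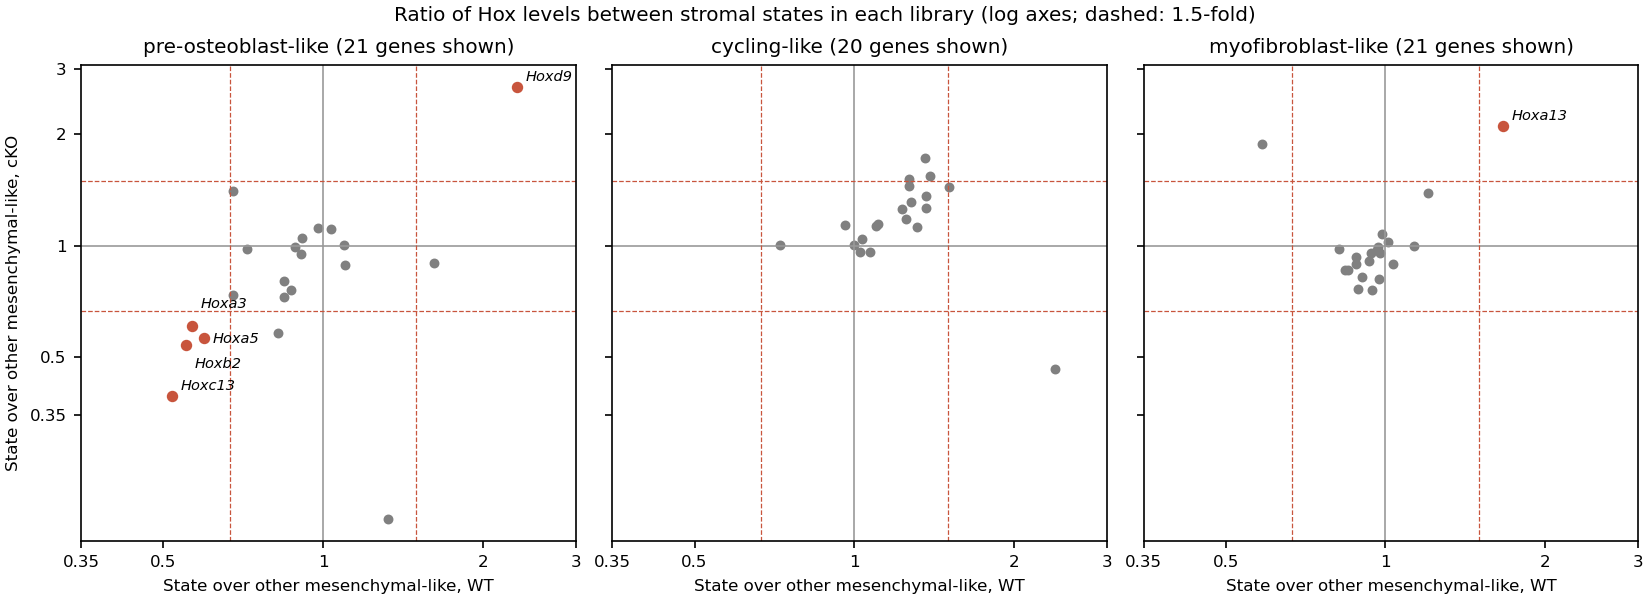
Ratio of Hox genes between a stromal state and the other mesenchymal-like cells in WT (x axis) and cKO (y axis), on log axes, with 1 panel per state, dashed lines at 1.5-fold, and in colour the genes beyond them in the same direction in both libraries. The pre-osteoblast-like panel holds 4 genes low in both libraries and Hoxd9 high in both, most genes of the cycling-like panel lie above 1 on both axes, and the myofibroblast-like panel has Hoxa13.

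Between the libraries, most Hox genes of mesenchymal-like cells lay within 1.5-fold. The summed level in cKO was 0.935 of that in WT (0.919 to 0.951). Outside these ratios was an unnamed cluster led by Tagln and Cnn1, with 165 WT and 384 cKO cells. Its summed Hox level was 220 CPM in WT and 245 CPM in cKO. Of the 23 Hox genes that reached 1 CPM in WT or cKO, 3 were at least 1.5-fold apart, 13.04% of them, where 5.78% of all 13469 genes tested were. The median log2 ratio was -0.14, beside -0.03 over all genes tested. Of the 23, 17 were below WT and 6 above, where 7759 of all 13469 genes tested were below and 5710 above. Hoxc10 (0.983, 0.944 to 1.02) and Hoxc9 (1.00, 0.943 to 1.06) had narrow intervals that included no difference, and Hoxa10 (0.908, 0.863 to 0.954), Hoxa9 (0.912, 0.865 to 0.962), Hoxa3 (0.841, 0.779 to 0.908) and Hoxc4 (0.794, 0.728 to 0.866) had intervals below 1, which cover counting error and leave out the spread between mice. With each cell weighted equally, 10 of the 23 ratios moved outside their counting intervals, Hoxa9 turned to 1.13, Hoxa11 to 1.28 and Hoxb4 to 0.816, and Hoxd8 reached 1.51, with Hoxa10 at 0.965, Hoxa3 at 0.778 and Hoxc4 at 0.829.

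Hoxc13 was the only Hox gene at least 1.5-fold higher in cKO, where 1.79% of all genes tested were. It was at 1.75 CPM in WT (1.51 to 2.03) and 4.32 CPM in cKO (3.88 to 4.79), a ratio of 2.47 (2.06 to 2.97). It was higher in cKO in the myofibroblast-like (1.97 and 5.30 CPM), cycling-like (1.70 and 4.70) and pre-osteoblast-like (0.989 and 2.04) states. Thinned to 20000 UMIs per cell, it was seen in 48 of 1673 WT cells (2.87%) and 62 of 1119 cKO cells (5.54%). Without thinning it was seen in 114 and 175 of these cells, with up to 4 and 18 UMIs in a cell. Those counts are not at 1 depth, since the median depths were 51735 and 69360 UMIs. The ratio of summed levels in these cells was 2.49. In macrophage-like cells Hoxc13 gave 10 and 5 UMIs, and in endothelial-like cells none.

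Hoxb6 and Hoxb9 were at least 1.5-fold lower in cKO, against 3.99% of all genes tested. Hoxb6 was at 1.60 CPM in WT and 0.714 in cKO, a ratio of 0.447 (0.326 to 0.605), and Hoxb9 at 2.27 and 0.822 CPM, a ratio of 0.362 (0.272 to 0.476). Both are among the genes held by few cells. Both reached 1 CPM only in WT, so they had to differ to be counted. Without the cells with 3 or more UMIs of Hoxb5 to Hoxb9, the ratios were 0.713 for Hoxb6 and 0.496 for Hoxb9, and no Hox gene that still reached 1 CPM was 1.5-fold lower. Those cells were chosen by the same genes, with 411 UMIs in the 41 of WT and 165 in the 30 of cKO, so leaving them out moves the ratios toward 1 by construction. With no filter on cells Hoxb6 stood at 0.781, inside the 1.5-fold line, and Hoxb9 at 0.609. Restricted to cells with at least 20000 UMIs, the same 3 genes were 1.5-fold apart, where 1.92% of all genes tested were higher in cKO, 2.66% lower and 4.57% apart in either direction.

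**Figure D5:**
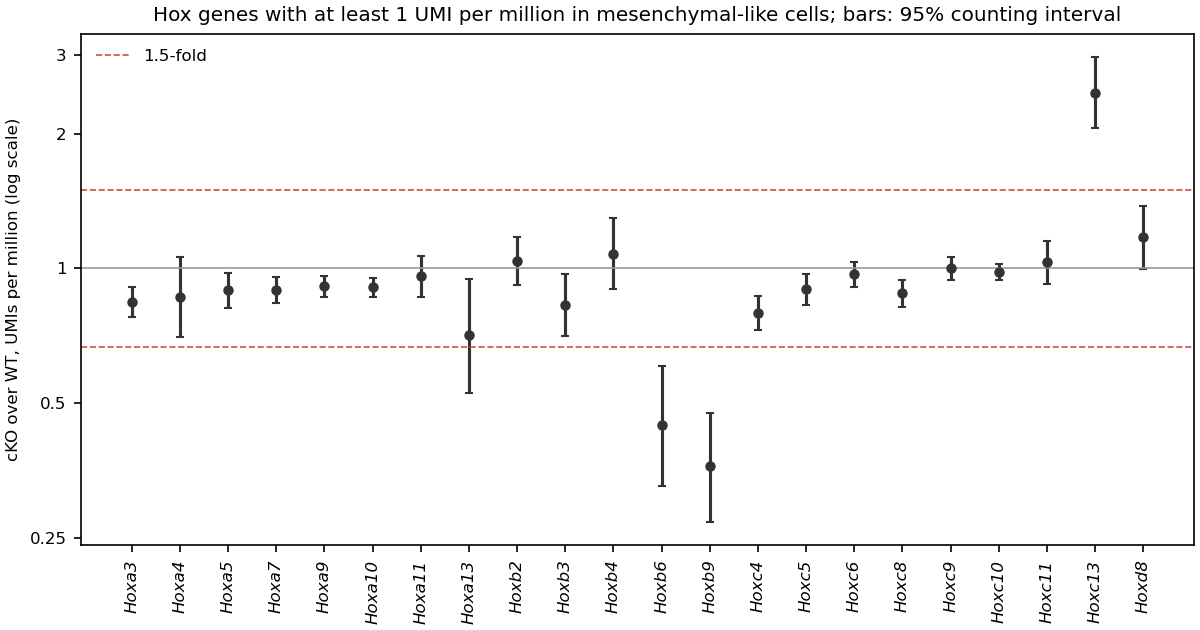
Ratio of the level in cKO to that in WT mesenchymal-like cells (log axis) for 22 of the 23 Hox genes that reached 1 CPM in WT or cKO, with 95% counting intervals and dashed lines at 1.5-fold. Hoxc13 lies above the upper line, Hoxb6 and Hoxb9 below the lower one, and the other 19 plotted genes between the lines.

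Other genes of limb position were read beside the family. Pitx1, the factor that sets hindlimb identity, was at 21.8 CPM in WT and 20.6 CPM in cKO mesenchymal-like cells. Tbx4, its hindlimb partner, gave 44 and 47 UMIs, and Tbx5, the forelimb counterpart, 4 and 5, in cells labelled as coming from femur and tibia. Of 38 limb identity genes, 19 reached 1 CPM; 2 were at least 1.5-fold higher in cKO and 1 lower, where 1.79% and 3.99% of all genes tested were. Msx2, a homeobox target of BMP signalling, was at 1.76 and 3.63 CPM (ratio 2.06, 1.71 to 2.49), Tbx2 at 1.23 and 2.25 (1.83, 1.45 to 2.31), and Alx1, a craniofacial and limb homeobox gene, at 1.64 and 0.605 (0.368, 0.263 to 0.507). Alx1 reached 1 CPM only in WT, so it had to differ to be counted. Tbx3 was at 5.56 and 7.64 CPM (1.37, 1.23 to 1.54). The median log2 ratio of the 19 was -0.02.

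The partners and regulators of Hox genes were compared between the libraries by the same rule. None of the 10 measured TALE cofactors, homeodomain proteins most of which bind DNA with Hox proteins, was 1.5-fold apart. Nor was any of the 22 Polycomb genes, whose products keep Hox genes silent. The same held for the 13 trithorax and H3K27 demethylase genes, whose products keep Hox genes active. Of all genes tested 5.78% were apart, so finding none in lists this short is near that share. The cofactors farthest from equal were Tgif2 (0.834), Meis1 (1.14), Pknox2 (0.883) and Meis3 (1.10). Among Polycomb genes these were Cbx8 (1.26), Ezh1 (0.805), Jarid2 (0.830) and Phf19 (1.17), and among the trithorax group Kdm6a (0.857), Kdm6b (0.878), Dot1l (0.883) and Rbbp5 (0.884). Median log2 ratios were -0.05, -0.04 and -0.14, beside -0.03 over all genes tested. In the trithorax group 12 of the 13 genes were below WT, where 7759 of all 13469 genes tested were. The 20 stromal reference genes lay alike, with 17 below WT and a median log2 ratio of -0.13. Of 10 noncoding RNAs of the Hox clusters in the count matrices, 5 reached 1 CPM. None was 1.5-fold apart, beside the same 5.78% of all genes tested. The 5 were Hotairm1 (14.7 and 14.4 CPM), Hoxa11os (8.05 and 7.34), Hoxb3os (3.94 and 4.63), Hoxaas3 (3.13 and 2.29) and Hoxaas2 (0.909 and 1.00). Meis1 was at 42.6 and 48.5 CPM in the stroma and at 2.70 and 0.496 CPM in endothelial-like cells, Meis2 at 72.5 and 66.6 against 3.71 and 2.48, and Pbx3 at 82.3 and 81.3 against 209 and 129.6. Hoxb3os followed the HoxB pattern, with 10.8 and 8.44 CPM in endothelial-like cells.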

How the data were processed

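Gene-by-cell UMI count matrices of 1 WT and 1 cKO library were deposited by the authors as raw counts; per the labels' protocols they come from 10x Chromium 3′ v3 libraries, and per the submitters' processing notes from Cell Ranger 7.1.0 with mm10 (GRCm38), Seurat being named too. From these counts, cells with at least 500 genes, 1000 UMIs and at most 15% mitochondrial UMIs were kept. Scrublet's own cut marked 2 cells per library, so the highest scores were removed at 0.8% per 1000 cells (534 and 243). Cells were log-scaled to 10000 UMIs and clustered with scanpy 1.11.5 (2000 variable genes, 30 components, Leiden resolution 0.5) without Hox genes. A cluster needed 3 markers to be named; mesenchymal-like cells were clustered again. The endothelial cluster was split after it was seen. A portion with Ighg2b and Igkc among its leading genes over both libraries (124 and 22 cells) was left out, as were unnamed clusters (282 and 576 cells). In that portion Igkc was at 9116 CPM in WT and 9.17 in cKO. Col1a1 was at 5381 and 2703 CPM there, against 267 and 153 in the endothelial-like cells kept. Intervals are exact Poisson, binomial or conditional binomial (95%), scipy 1.17.1. Named genes were those with at least 5 CPM in mesenchymal-like cells, those 1.5-fold apart, the top 5 per class, up to 6 per state, 8 highest and 4 lowest pairs, and up to 4 per list. The cells rich in Hoxb5 to Hoxb9, Meis2, Pbx3 and Tbx3 were singled out after their values were seen. The members and lists were chosen with earlier results of these data known. The counting was run on simulated Poisson counts, which hold no extra spread between cells or mice and so do not test the intervals against it. No sequence of proteins was used here, and values of 1 Hox gene, which stays in the counts and sums, are not reported here.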

Additional observations from a re-analysis of the deposited data

How the results depend on the processing

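No paired analysis was possible because each group is 1 library. The counts of Hox genes called between endothelial-like and mesenchymal-like cells stayed within 1.5 times under all alternatives run. Raising the minimum to 5 CPM gave 14 measured Hox genes in WT, 0 genes higher and 0 lower in cKO, and 0 higher in pre-osteoblast-like cells; without a minimum, 35 genes counted as measured in cKO, 6 as higher and 5 as lower in cKO. Weighting each cell equally gave 2 genes higher in cKO and a summed ratio of 0.984, moved 10 of 23 single ratios and turned Hoxa9 from 0.912 to 1.13, Hoxa11 from 0.961 to 1.28 and Hoxb4 from 1.08 to 0.816, and TMM scaling gave a summed ratio of 0.954, against 0.935. A 2-fold rule left 0 genes lower in pre-osteoblast-like cells. Without the cells rich in Hoxb5 to Hoxb9, which those genes themselves chose, 0 genes were lower in cKO. With cells of at least 20000 UMIs, 2 Hox genes in place of 4 exceeded the reference in macrophage-like cells. The share of mesenchymal-like cells with at least 5 Hox genes was 44.2% and 38.5% with no filter on cells, 38.99% in cKO among cells with a Prrx1 UMI, and 11.6% and 10.1% when thinned to 10000 UMIs. The alternatives without shared barcodes, with the left-out endothelial portion kept and without the HoxB-rich cells were chosen after seeing the data. The cause of the other shifts was not tested. Depth limits the small classes: 3 UMIs equal 1.01 and 1.49 CPM in endothelial-like, 1.77 and 1.57 in monocyte- or dendritic-like cells.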
